A study of Mus musculus with 4 samples.

Results

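The miR-17-92 cluster is a polycistron, a single primary transcript from which several microRNAs (miRNAs) are cut. Its 8 miRNAs with the usual names, namely miR-17-5p, miR-17-3p, miR-18a-5p, miR-18a-3p, miR-19a-3p, miR-20a-5p, miR-19b-3p and miR-92a-3p, were taken by name from the expression tables, and all 8 had reads in every sample. They are 8 of the 869 known mouse miRNAs that had at least 1 read in any sample. The samples were myotubes of C2C12, an established mouse skeletal myoblast line labelled with strain background 129/Rej, kept for 6 days in differentiation medium (high glucose DMEM with 2% horse serum). Both groups shared this medium, negative control (NC, 2 samples) without guanidinoacetic acid and GAA (2 samples) with 20 mM of it. Guanidinoacetic acid is the direct precursor of creatine. The study asked whether miRNAs take part in the differentiation of these cells under GAA, and the question here was how much of each cluster miRNA the myotubes held and whether GAA moved it. All samples came from this 1 cell line, and nothing in the labels says that the samples of a group came from separate cultures, so every p-value measures only the spread between these samples, which may be technical.

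The cluster is transcribed from the host gene Mir17hg and is known as an oncogenic miRNA cluster, driven by MYC and E2F transcription factors in growing cells and usually abundant in proliferating progenitors. A mature miRNA binds target mRNAs mainly through its seed, bases 2 to 8, so members with the same seed share most of their targets. The cluster holds several seed groups: miR-17 and miR-20a, known to repress the cell cycle inhibitor Cdkn1a and the factor E2f1; miR-18a, which differs from them inside the seed; the miR-19 pair; and miR-92a, known for repressing integrin alpha 5 and the apoptosis gene Bcl2l11. The hairpins that are cut also leave opposite arms, of which miR-17-3p and miR-18a-3p are members here.

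In the mouse genome build GRCm38, Mir17hg lies on the plus strand at chr14:115042879-115046727 and has 2 annotated exons. The 6 precursor hairpins, in the order Mir17, Mir18, Mir19a, Mir20a, Mir19b-1 and Mir92-1, lie within 836 bases at chr14:115043671-115044506, and all 6 fall inside exon 2 of this non-coding host transcript. The gaps between neighbouring hairpins were 35 to 96 bases. Mature sequences from RefSeq (GRCm38.p6) are shown 5′ to 3′ in the order of the precursors, because the seed groups carry the comparisons that follow, with the seed (bases 2 to 8) in capitals.
miR-17-5p: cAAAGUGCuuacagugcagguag
miR-17-3p: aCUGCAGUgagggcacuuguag
miR-18a-5p: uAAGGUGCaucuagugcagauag
miR-18a-3p: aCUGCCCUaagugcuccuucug
miR-19a-3p: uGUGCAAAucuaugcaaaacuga
miR-20a-5p: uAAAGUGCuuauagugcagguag
miR-19b-3p: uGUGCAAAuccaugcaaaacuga
miR-92a-3p: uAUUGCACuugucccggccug

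The 2 miR-19 members differ by 1 base in 23, U11C counted from the 5′ end of miR-19a-3p, and miR-17-5p and miR-20a-5p differ by 2 bases in 23, C1U and C12U counted from the 5′ end of miR-17-5p. The change A4G puts miR-18a-5p outside the miR-17 seed group. Mature miR-19b-3p and miR-92a-3p are each annotated at a second place, the Mir19b-2 and Mir92-2 hairpins on the minus strand of chromosome X (mature sequences at chrX:52741991-52742013 and chrX:52741854-52741874), which belong to the paralogous miR-106a-363 cluster. Reads of these 2 members therefore cannot be assigned to 1 locus, and they were the 2 members with fractional reads in the tables.

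Values were given as reads per 1000000 mappable reads (RPM), and as a percent of all miRNA reads of the sample (the share). Read totals were recovered from the deposited values, at 4732359 to 5657704 mappable reads and 1653803 to 3134241 miRNA reads a sample. Some miRNAs had identical values, such as miR-486a-5p with miR-486b-5p and miR-199a-3p with miR-199b-3p, and each of them entered the miRNA sum. The part of mappable reads that were miRNA was 33.6% and 43.6% in NC against 56.3% and 50.4% in GAA. The median log2 fold change of the 497 miRNAs detected in all 4 samples was accordingly 0.42 in RPM and 0.02 in the share, so each member is read on both scales. All 7 muscle miRNAs checked (among them miR-133a-3p at 2251 to 3787 RPM) were present in every sample, and their summed share was 3.12% and 3.14% in NC and 1.99% and 2.09% in GAA. In RPM the muscle sum was 10479.8 and 13715 in NC and 11217.5 and 10533.3 in GAA, so the sums overlapped on that scale. Taken singly in RPM, 5 of the 7 lay lower in both GAA samples than in both NC samples, and 0 higher. Over the 497 miRNAs, 5.23% lay lower and 56.5% higher. The largest part of the sum, miR-486a-5p, overlapped, at 4849 and 6615 RPM in NC and 6700 and 5640 RPM in GAA. The 11 markers of liver, neurons, blood cells, endothelium and epithelium summed to 40.6 and 53.5 RPM in NC and 87.8 and 60.3 RPM in GAA. As a share they summed to 0.0121% and 0.0122% in NC and 0.0156% and 0.0120% in GAA, which overlapped. Of these, the liver miRNA miR-122-5p and the blood cell miRNA miR-223-3p had no reads in either NC sample. In RPM, 4 of the 11 lay higher and 3 lower in both GAA samples than in both NC samples. Over the 497 miRNAs detected in all 4 samples, 56.5% lay higher and 5.23% lower, and 7 of the 11 markers were detected in all 4. The 4 higher markers include miR-122-5p and the 3 lower ones miR-200c-3p, which are not among those 7, so the sets are not alike. The 3 lower ones were miR-451a (1 to 10 reads a sample), miR-141-3p (3 to 5 reads) and miR-200c-3p (0 to 2 reads). The part of the 11 markers in the results was not tested, and in bulk RNA fewer cells of a type and less RNA per cell cannot be told apart.

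miR-92a-3p was the most read member, with 432 and 570 RPM in NC and 1005 and 874 RPM in GAA. It stood 58th of 869 miRNAs by mean RPM. miR-19b-3p followed with 264 and 394 RPM in NC and 620 and 256 RPM in GAA, and the sample GAA-2 was below both NC samples. These 2 miRNAs, which the last 2 hairpins of the transcript and the chromosome X copies both encode, made up most of the cluster reads in every sample.

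The miR-17 seed members came next. miR-17-5p was read at 118 and 128 RPM in NC and at 227 and 133 RPM in GAA. miR-20a-5p was read at 86.1 and 108 RPM in NC and at 168 and 100.2 RPM in GAA. In both, GAA-1 stood well above the other 3 samples, which lay close together.

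miR-19a-3p had 38.2 and 53.7 RPM in NC and 103 and 42.2 RPM in GAA, so GAA-2 fell between the NC samples. miR-18a-5p had 29.4 and 33.8 RPM in NC and 49.2 and 44.2 RPM in GAA, with the groups apart. The opposite arms were the least read members. miR-17-3p reached 10.8 and 13.1 RPM in NC and 17.6 and 12.2 RPM in GAA, and miR-18a-3p, 324th of 869, only 2.84 and 2.54 RPM in NC and 4.13 and 4.24 RPM in GAA, which is 12 to 24 reads a sample.

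**Figure D1:**
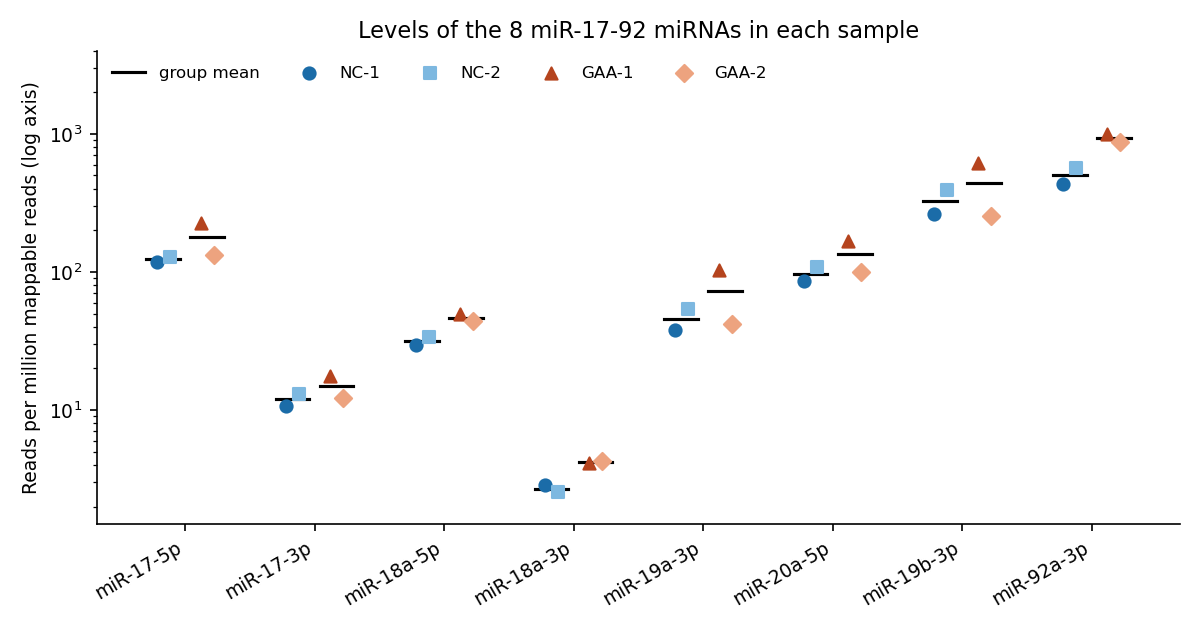
Level of each miR-17-92 miRNA in RPM (vertical log axis) in the 4 samples, ordered by precursor along the transcript. Symbols are samples and black bars are group means of 2 samples. Both GAA symbols lie above both NC symbols for miR-17-5p, miR-18a-5p, miR-18a-3p and miR-92a-3p, and GAA-1 is the highest sample for every member but miR-18a-3p.

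The order of levels was miR-92a-3p, miR-19b-3p, miR-17-5p, miR-20a-5p, miR-19a-3p, miR-18a-5p, miR-17-3p and miR-18a-3p in both NC samples and in GAA-1. GAA-2 differed in 1 place, with miR-19a-3p at 0.956 times miR-18a-5p, against 1.30, 1.59 and 2.10 times in NC-1, NC-2 and GAA-1. In NC, no 2 neighbours in this order overlapped. In GAA, 3 neighbouring pairs overlapped between samples (miR-17-5p with miR-20a-5p, miR-20a-5p with miR-19a-3p, and miR-19a-3p with miR-18a-5p), although miR-17-5p was 1.18 to 1.37 times miR-20a-5p within each of the 4 samples. Levels of different miRNAs are compared as reads, and reads per molecule can differ between sequences.

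Levels of the members with 1 annotated locus did not follow the order of the hairpins. Of the members with 1 annotated locus and leaving out the opposite arms, miR-18a-5p, from the second hairpin, was the lowest in 3 of 4 samples (miR-19a-3p was in GAA-2), and its neighbour on the 5′ side, miR-17-5p, was 3.01 to 4.61 times as high in the same sample.

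Both GAA samples lay above both NC samples in RPM for 4 of the 8 members, and below for 0 of 8. Over the 497 miRNAs detected in all 4 samples the same was true of 56.5% above and 5.23% below, so the count of members is near the background. On the share of miRNA reads, 1 of 8 members lay above in both GAA samples and 0 of 8 below, against 21.9% above and 19.1% below over the 497 miRNAs. The 1 member was miR-92a-3p.

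In the limma fit over all 869 miRNAs on log2(RPM + 1), 0 members were called, which took an FDR below 0.01 together with a log2 fold change beyond 1 in either direction. The rule called 0% of all miRNAs in RPM, where 152 had an unadjusted p under 0.05, and limma voom on the recovered reads also called 0. In the share it called 0.115%, 1 miRNA, the muscle miRNA miR-208b-3p. All 8 members had a log2 fold change above 0 in RPM, with a median of 0.49, and 5 of 8 in the share, with a median of 0.05, beside 654 and 489 of all 869 miRNAs. Of these 869 only 497 were detected in all 4 samples, as every member was. The median log2 fold change of those 497 was 0.42 in RPM and 0.02 in the share.

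For miR-92a-3p the NC mean of 501 ± 98.0 RPM (SD, n = 2) compared with a GAA mean of 940 ± 93.0 RPM (SD, n = 2), a ratio of 1.88, and the fit did not call it. Its log2 fold change was 0.92 (SE 0.21, limma adjusted p = 0.206). The share of miRNA reads was 0.129% (95% Wilson interval 0.123 to 0.134) and 0.131% (0.126 to 0.136) in NC, and 0.179% (0.174 to 0.183) and 0.173% (0.169 to 0.178) in GAA. The groups were apart on this scale too, and the intervals, which cover counting error only, did not overlap between them. The log2 fold change in the share was 0.44 (SE 0.18, limma adjusted p = 0.550).

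miR-18a-5p went from 31.6 ± 3.09 RPM (SD, n = 2) to 46.7 ± 3.56 RPM (SD, n = 2), with a log2 fold change of 0.55 (SE 0.18, limma adjusted p = 0.272). Its share was nearly equal in 3 samples (0.00877% in NC-1, 0.00874% in GAA-1 and 0.00877% in GAA-2) and 0.00775% in NC-2, so the groups overlapped and the log2 fold change was 0.09 (SE 0.22, limma adjusted p = 0.902). Its opposite arm miR-18a-3p gave 0.49 (SE 0.21, limma adjusted p = 0.316) in RPM and 0.14 (SE 0.39, limma adjusted p = 0.908) in the share. Because 1 was added before the logarithm, this value understates the ratio of mean RPM of so low a miRNA, which was 1.56.

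For miR-17-5p the groups were apart in RPM but close, with the lowest GAA sample at 133 RPM and the highest NC sample at 128 RPM. The log2 fold change was 0.49 (SE 0.31, limma adjusted p = 0.459) in RPM and 0.02 (SE 0.24, limma adjusted p = 0.966) in the share, where the 4 values were 0.0351% and 0.0294% in NC and 0.0403% and 0.0264% in GAA. miR-20a-5p, with the same seed, gave 0.42 (SE 0.32, limma adjusted p = 0.524) and -0.05 (SE 0.23, limma adjusted p = 0.928). In the share, GAA-1 was the highest and GAA-2 the lowest of the 4 samples for both, so the GAA samples enclosed the NC samples. miR-17-3p gave 0.28 (SE 0.26, limma adjusted p = 0.524) in RPM and -0.17 (SE 0.28, limma adjusted p = 0.820) in the share.

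The miR-19 pair had the widest errors in RPM. miR-19a-3p gave 0.54 (SE 0.50, limma adjusted p = 0.524) in RPM and 0.07 (SE 0.33, limma adjusted p = 0.928) in the share, and miR-19b-3p gave 0.30 (SE 0.51, limma adjusted p = 0.707) and -0.17 (SE 0.32, limma adjusted p = 0.860). Leaving out GAA-1 turned the RPM values of both below 0, to -0.10 for miR-19a-3p and -0.33 for miR-19b-3p, and brought those of miR-17-5p, miR-20a-5p and miR-17-3p down to 0.11, 0.052 and 0.035.

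**Figure D2:**
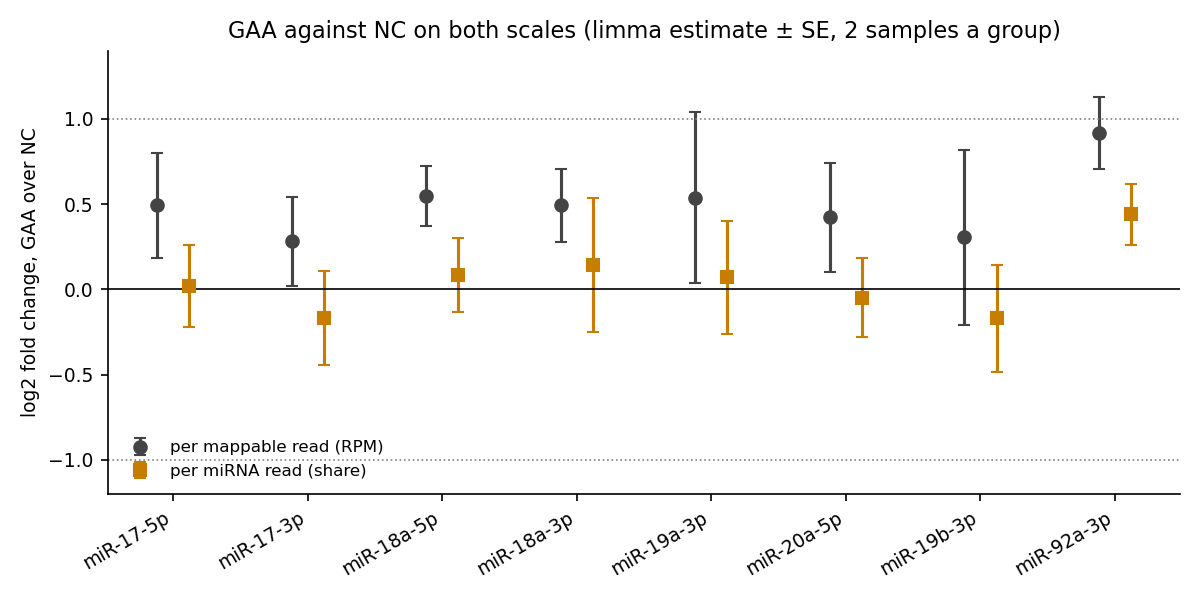
Log2 fold change of GAA over NC (vertical axis) for each member from the limma fit, with standard error bars, 2 samples a group. Dark circles are RPM, orange squares the share of miRNA reads, and dotted lines the fold threshold of 1. Every RPM estimate lies above 0, and in the share the other 7 members lie between -0.17 and 0.14 while miR-92a-3p is at 0.44.

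Between the 2 GAA samples the miR-19 members differed more than nearly all other miRNAs. GAA-1 exceeded GAA-2 by 2.45 times for miR-19a-3p and by 2.42 times for miR-19b-3p. The median absolute difference was 0.29 on the log2 scale over the 323 miRNAs that reached 10 reads in each library, and only miR-3968, miR-221-5p and miR-296-3p (named after their values were seen) differed more than the 1.29 of miR-19a-3p. The difference was 1.71 times for miR-17-5p, 1.68 times for miR-20a-5p and 1.44 times for miR-17-3p. It was 1.15 times for miR-92a-3p and 1.11 times for miR-18a-5p, and miR-18a-3p was about equal at 0.974 times.

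In the NC group, 7 of the 8 members were lower in NC-1 than in NC-2, at 0.670 times for miR-19b-3p, 0.711 times for miR-19a-3p and 0.757 times for miR-92a-3p. The median of all 323 miRNAs was also lower in NC-1, by 0.22 on the log2 scale, and higher in GAA-1 than in GAA-2 by 0.25. Members of 1 transcript thus did not keep 1 ratio to each other between the 2 GAA samples.

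**Figure D3:**
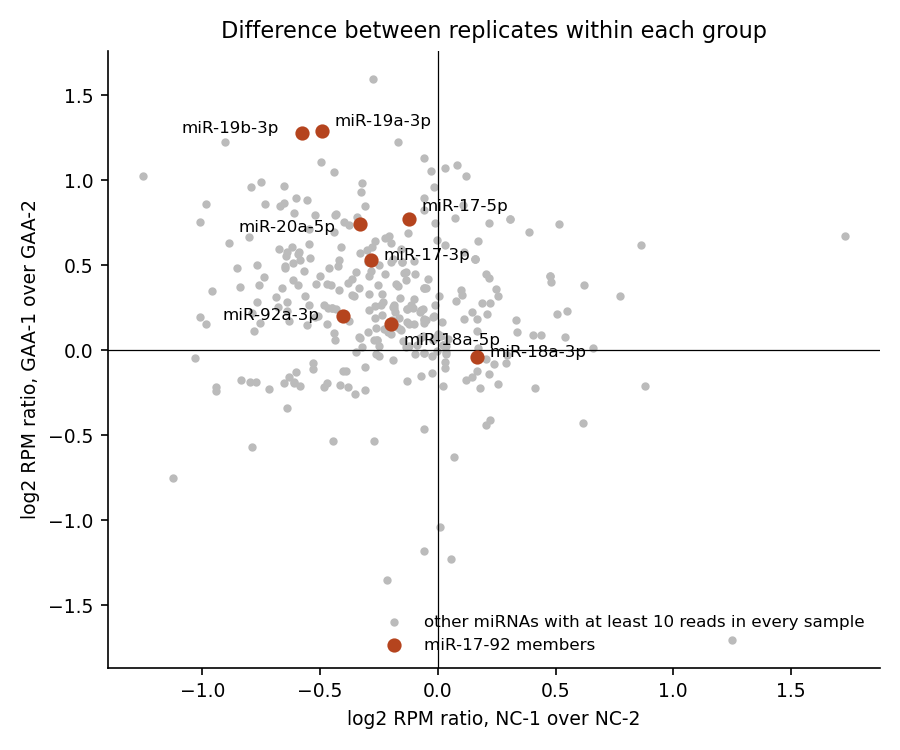
Log2 RPM ratio of NC-1 over NC-2 (horizontal axis) and of GAA-1 over GAA-2 (vertical axis) for the same 323 miRNAs, members in red. miR-19a-3p and miR-19b-3p lie side by side near 1.29 and 1.28 on the vertical axis, while miR-18a-5p and miR-92a-3p lie at 0.16 and 0.20.

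The make-up of the cluster reads showed the same split. miR-92a-3p made up 44.0% and 43.7% of the reads of the 8 members in NC, 45.8% in GAA-1 and 59.6% (95% Wilson interval 58.6 to 60.7) in GAA-2. miR-19b-3p made up 26.9% and 30.2% in NC, 28.2% in GAA-1 and 17.5% (16.7 to 18.3) in GAA-2. GAA-1 was thus nearer to the NC samples than to its own replicate for both members. miR-17-5p held 9.07% to 12.03%, miR-20a-5p 6.84% to 8.78%, miR-19a-3p 2.88% to 4.72%, miR-18a-5p 2.24% to 3.02%, miR-17-3p 0.802% to 1.10% and miR-18a-3p 0.188% to 0.290% over the 4 samples.

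**Figure D4:**
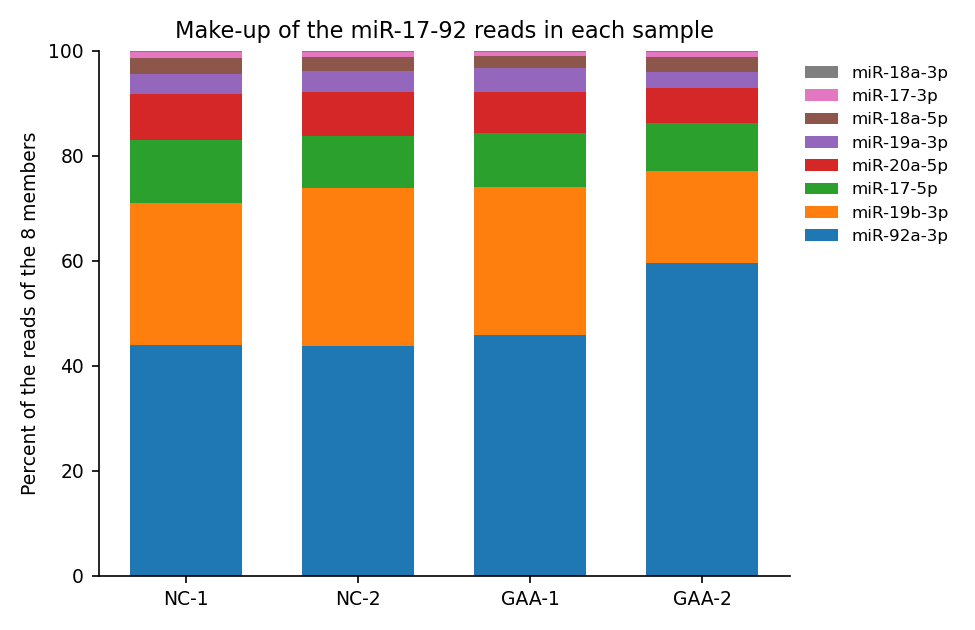
Percent of the summed reads of the 8 members (vertical axis) taken by each member in each sample. The lowest segment, miR-92a-3p, is 43.7% to 45.8% in NC-1, NC-2 and GAA-1 and 59.6% in GAA-2, where the miR-19b-3p segment above it narrows to 17.5%.

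Ratios within a sample do not depend on the divisor. With 2 samples against 2 the exact two-sided permutation test cannot go below p = 0.333, so no ratio could pass 0.05. The ratio of miR-17-5p to its opposite arm miR-17-3p was 10.96 and 9.79 in NC and 12.9 and 10.9 in GAA (exact p = 0.667), and that of miR-18a-5p to miR-18a-3p was 10.4 and 13.3 in NC and 11.9 and 10.4 in GAA (exact p = 1). Both arm ratios overlapped between the groups. The arm ratio of Mir20a, miR-20a-5p over miR-20a-3p and not one of the 5 fixed, did not, at 47.1 and 34.2 in NC and 24.6 and 31.5 in GAA (log2 difference -0.53, exact p = 0.333), with 9 to 38 reads of miR-20a-3p behind each value. miR-17-5p over miR-20a-5p was 1.37 and 1.18 in NC and 1.35 and 1.33 in GAA (exact p = 1).

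The ratio of miR-19b-3p to miR-19a-3p, 6.91 and 7.33 in NC, was 5.99 and 6.06 in GAA. It was, among the 5 fixed ratios, the only one with the groups apart, at a log2 difference of -0.24 (exact p = 0.333, the smallest possible). The 2 GAA samples gave nearly the same ratio although each miRNA differed 2.45 or 2.42 times between them. miR-92a-3p over miR-17-5p was 3.66 and 4.45 in NC and 4.43 and 6.57 in GAA (exact p = 0.667), and adjusted over the 10 ratios computed the exact p-values were 0.952 to 1.

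The 8 members summed to 981 and 1304 RPM in NC and 2194 and 1466 RPM in GAA. The group means were 1142 ± 228 RPM (SD, n = 2) and 1830 ± 515 RPM (SD, n = 2), a log2 ratio of 0.68. As a share of miRNA reads the sum was 0.292% (95% Wilson interval 0.284 to 0.3004) in NC-1, 0.299% (0.291 to 0.306) in NC-2, 0.390% (0.383 to 0.397) in GAA-1 and 0.291% (0.285 to 0.297) in GAA-2, a log2 ratio of 0.20. On this scale the interval of GAA-2 overlapped those of both NC samples, and GAA-1 was higher than all 3. Without the 2 members that chromosome X also encodes, the sum was 285 and 339.8 RPM in NC and 569 and 336 RPM in GAA, and the groups overlapped in RPM as well.

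Of the 4 other arms of the cluster, miR-92a-1-5p and miR-20a-3p ranked above at least 1 member by mean RPM. miR-92a-1-5p, 167th of 869 by mean RPM and so ahead of miR-18a-5p at 171st, the opposite arm of the Mir92-1 hairpin alone, had 28.6 and 34.02 RPM in NC and 64.3 and 45.4 RPM in GAA, with the groups apart in RPM and in the share, and its log2 fold change was 0.77 (SE 0.25, limma adjusted p = 0.272) in RPM and 0.31 (limma adjusted p = 0.781) in the share. Reads of miR-92a-3p were 15.1 and 16.8 times those of miR-92a-1-5p in NC and 15.6 and 19.2 times in GAA (exact p = 0.667). Each arm lay higher in both GAA samples than in both NC samples, in RPM and in the share. miR-20a-3p, 319th by mean RPM and so ahead of miR-18a-3p at 324th, had 1.83 and 3.17 RPM in NC and 6.83 and 3.18 RPM in GAA. It was above miR-18a-3p in NC-2 and GAA-1 and below it in NC-1 and GAA-2. miR-19b-1-5p had 0 to 8 reads and miR-19a-5p 1 to 3 reads a sample, at or near the 3 reads taken as the floor.

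The miR-106a-363 cluster on chromosome X, which holds the second copies of miR-19b and miR-92a, was nearly unread. Of its 10 miRNAs other than those copies, 4 had any reads. miR-363-3p had 3 to 8 reads a sample, miR-106a-5p 5 reads in GAA-1 and 0 in the others, miR-18b-5p 1 read in GAA-2 and 0 in the others, and miR-20b-5p 0 or 1 read. Together they gave 1.02 and 0.634 RPM in NC and 2.16 and 1.77 RPM in GAA.

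The miR-106b-25 cluster, a paralog on chromosome 5 with the miR-17 and miR-92 seeds, was about as high as miR-17-92. Its 6 miRNAs summed to 1381 and 1527 RPM in NC and 2208 and 1906 RPM in GAA, and miR-17-92 was 0.710 and 0.854 times this sum in NC and 0.994 and 0.769 times in GAA (exact p = 0.667). None of its 6 members was called, and 4 of 6 lay above in both GAA samples in RPM (56.5% of the 497 miRNAs did). In the share 3 of 6 lay above (21.9% of the 497) and 1 of 6 below (19.1%), the latter being miR-93-5p with 0.198% and 0.186% in NC and 0.163% and 0.145% in GAA. For comparison with the members, 3 of its mature sequences are shown with the seed in capitals.
miR-106b-5p: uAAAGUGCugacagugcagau
miR-93-5p: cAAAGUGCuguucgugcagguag
miR-25-3p: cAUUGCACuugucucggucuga

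With these, the reads that carry each seed could be added up over the 717 of 869 detected miRNAs that matched a RefSeq mature sequence. The miR-17 seed was carried by 6 detected miRNAs, and the 2 cluster members gave 20.9% and 20.5% of its reads in NC and 26.4% and 20.3% in GAA. Most of the rest was miR-93-5p, at 664 and 812 RPM in NC and 921 and 733 RPM in GAA. miR-106b-5p, with 106 and 104 RPM in NC and 181 and 183 RPM in GAA, was apart between the groups in RPM and in the share, but was not called (log2 fold change 0.79 in RPM, SE 0.14, limma adjusted p = 0.205). Summed over the group, the miR-17 seed reads were 974 and 1152 RPM in NC and 1497 and 1150 RPM in GAA, which overlapped.

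The miR-92 seed was carried by 5 detected miRNAs. miR-25-3p, which differs from miR-92a-3p at 3 of the 21 bases compared, was close to it in level, with 582 and 575 RPM in NC and 1053 and 938 RPM in GAA (log2 fold change 0.78, SE 0.15, limma adjusted p = 0.205). Reads of miR-92a-3p were 0.742 and 0.992 times those of miR-25-3p in NC and 0.955 and 0.931 times in GAA (exact p = 1). miR-32-5p (12.04 to 18.2 RPM) and miR-92b-3p (8.24 to 14.8 RPM) added little. The whole seed group was 1038 and 1166 RPM in NC and 2088 and 1847 RPM in GAA, and 0.309% and 0.267% against 0.371% and 0.366% of miRNA reads, so the groups were apart on both scales.

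The miR-18 seed was carried by miR-18a-5p, which gave all of its reads in 3 samples and 99.6% in GAA-2. The miR-19 seed had no carrier among the matched miRNAs but the 2 members, and its summed level of 302 and 447 RPM in NC and 723 and 298 RPM in GAA was therefore theirs. No other of the 717 matched miRNAs had the seed of miR-17-3p or of miR-18a-3p.

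**Figure D5:**
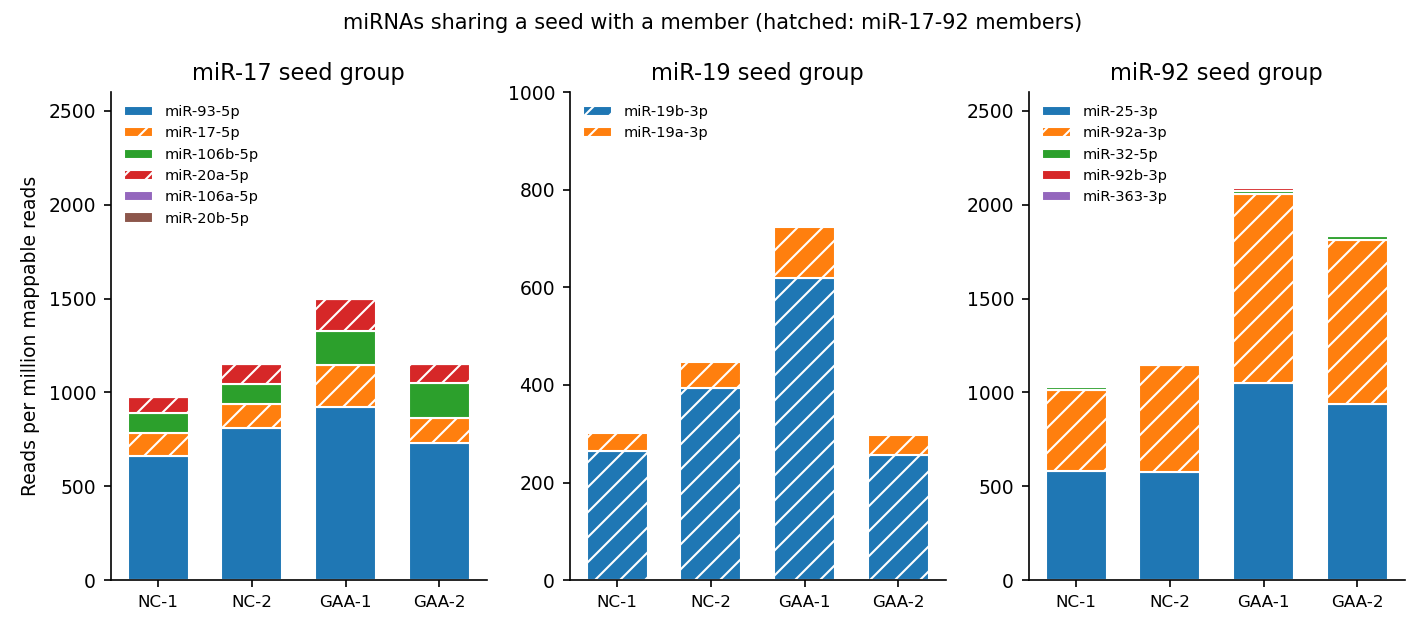
RPM (vertical axes, with a smaller range in the middle panel) of all detected miRNAs with the miR-17, miR-19 or miR-92 seed in each sample, stacked, with cluster members hatched. The miR-92 stack is 1038 and 1166 RPM in NC and 2088 and 1847 RPM in GAA, with miR-25-3p and miR-92a-3p as its main parts, while the miR-19 stack of GAA-1, 723 RPM, exceeds the 298 RPM of GAA-2.

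The 5 other miRNAs whose profile over the 4 samples (centred log2(RPM + 1), Euclidean distance, 323 miRNAs compared) lay nearest to the mean profile of the members were miR-320-3p, miR-425-5p, miR-191-5p, miR-140-5p and miR-871-3p, at distances of 0.0326 to 0.0871. The members themselves lay at 0.126 (miR-20a-5p) to 0.550 (miR-19b-3p) from their own mean. miR-320-3p, the nearest, had 161 and 198 RPM in NC and 305 and 203 RPM in GAA, with GAA-1 high and the other 3 samples close together. Its log2 fold change was 0.47 (SE 0.27, limma adjusted p = 0.427) in RPM.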

How the data were processed

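Small RNA of 2 NC and 2 GAA samples was sequenced on an Illumina HiSeq instrument. Per the paper's methods, the authors filtered the reads, mapped them to GRCm38.p5, counted known miRNAs with miRDeep2 and miRBase, and divided by mappable reads. The deposited values are log2(RPM + 1), a base read from the values themselves, since 95.6% fell on whole reads (within 0.02 reads) after inversion. A miRNA without a row was set to 0. The share divides by the summed reads of all miRNAs. GAA was set against NC in limma 3.58.1 (R 4.3.3, mean-variance trend, group only) over 869 miRNAs with Benjamini-Hochberg adjustment, and called at FDR under 0.01 and absolute log2 fold change above 1. Python 3.11.15 and scipy 1.17.1 gave exact permutation tests and Wilson intervals, and matplotlib 3.10.9 the figures. The members, lists and tests were chosen with earlier results of these data known. Named miRNAs were the members, their other arms, both paralogous clusters, other carriers of a member's seed and the 5 nearest profiles. The fit was tested on simulated data whose changes were larger and whose noise was smaller than here, so this does not measure its power. A floor of 3 reads equals 0.530 to 0.634 RPM. No batch or date was given in the sources used here. Annotation came from GENCODE M21 and RefSeq.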

Additional observations from a re-analysis of the deposited data

How the results depend on the processing

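On either scale 0 members were called under every alternative run. Over all miRNAs, the count called in RPM was 0 and became 1 (miR-208b-3p) with median-of-ratios factors or with miRNA reads without the 5 most abundant as the divisor, and stayed 0 with each sample left out. The count in the share was 1 and became 0 with a pseudocount of 0.1, 0 with at least 10 reads in every sample, 8 with limma voom on the recovered reads, 6 with the replicate block and 0 with any 1 sample left out. The labels do not say whether the replicate numbers pair NC and GAA samples. The correlation of deviations of same-numbered samples was -0.16 over 323 miRNAs, which cannot decide it, since these miRNAs come from the same few samples. A crossed replicate block, added after seeing the data, called 0 in RPM and 6 in the share. The log2 ratio of the summed cluster was 0.68 in RPM and 0.20 in the share. The RPM ratio was 0.36 to 0.94 with each sample left out, and 0.67 with the replicate block. Samples were not left out for the share of the sum. There GAA-2 (0.291%) lay below NC-1 (0.292%) and NC-2 (0.299%), and only GAA-1 (0.390%) lay above them. Without miR-19a-3p and miR-19b-3p the log2 ratio of the sum in RPM was 0.78 and without miR-92a-3p 0.47, both added after seeing the data. Divided by summed miRNA reads, the log2 fold changes of miR-17-3p, miR-20a-5p and miR-19b-3p turned to -0.17, -0.051 and -0.17. With median-of-ratios factors those of miR-17-5p, miR-17-3p, miR-20a-5p and miR-19b-3p turned to -0.033, -0.21, -0.10 and -0.22, and without the 5 most abundant miRNAs those of miR-17-3p and miR-19b-3p turned to -0.086 and -0.085. The cause was not tested. miR-92a-3p stayed between 0.72 and 1.12 in the alternatives that kept RPM (limma adjusted p 0.0912 to 0.420 with all 4 samples). Under the other divisors it was 0.39 with median-of-ratios factors, 0.44 with summed miRNA reads and 0.53 without the 5 most abundant miRNAs. In the share it stayed between 0.42 and 0.46 in the alternatives run (limma adjusted p 0.372 to 0.636 with all 4 samples). With each sample left out, log2 fold changes in RPM ranged from -0.10 to 1.17 for miR-19a-3p from -0.33 to 0.94 for miR-19b-3p, from 0.11 to 0.88 for miR-17-5p, from 0.052 to 0.79 for miR-20a-5p and from 0.035 to 0.53 for miR-17-3p, each lowest without GAA-1 and highest without GAA-2. In the share they ranged from -0.28 to 0.32 for miR-17-5p, -0.35 to 0.011 for miR-17-3p, -0.0019 to 0.17 for miR-18a-5p, -0.10 to 0.38 for miR-18a-3p, -0.49 to 0.63 for miR-19a-3p, -0.34 to 0.24 for miR-20a-5p and -0.73 to 0.39 for miR-19b-3p. The log2 difference of miR-18a-5p over miR-18a-3p, -0.08, turned to 0.057 with 1 added to each RPM and ranged from -0.26 to 0.11 with each sample left out, and that of miR-17-5p over miR-20a-5p, 0.07, ranged from -0.034 to 0.18. The other 3 ratios kept their direction, although miR-92a-3p over miR-17-5p (0.42) ranged from 0.14 without GAA-2 to 0.70 without GAA-1 and miR-17-5p over miR-17-3p (0.19) from 0.073 without GAA-1 to 0.31 without GAA-2. The values of miR-18a-3p rest on 12 to 24 reads a sample.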
